A study of Mus musculus with 2 samples.

Results

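The matrix metalloproteases, the ADAM and ADAMTS proteases and their inhibitors, the TIMPs, were followed across the cells of the mouse brain and lung that carried a Nestin-GFP reporter. Members were the gene symbols starting with Mmp, Adam, Adamts or Timp and a number that had at least 20 unique molecular identifiers (UMIs, counts of single captured transcripts) over both deposited tables. Of 65 such symbols 51 passed, 4 Timp, 14 Mmp, 15 Adam and 18 Adamts genes, among 18002 genes of that count and 25814 genes with any UMI. Just inside the limit were Adam3 with 24 UMIs, Mmp21 with 28 and Adam32 with 29. Just outside were Mmp12 with 17, Mmp25 with 16 and Adamts13 with 14. The other 11 symbols below it were Mmp8, Adam1a, Adam1b, Adam2, Adam18, Adam20, Adam21, Adam25, Adam28, Adam30 and Adam39, with 1 to 11 UMIs each.

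Nestin-GFP mice express green fluorescent protein under regulatory elements of Nestin, an intermediate filament gene of neural stem cells that pericytes, endothelium and muscle precursors also use. The reporter therefore sorts several cell types and is no lineage mark. Brain and lung were taken from mice of about 6 weeks, labelled C57BL/6, whereas the methods describe wild-type CD1 or CD1 and C3H stock with which the transgenic mice were bred. Both tissues were digested with trypsin, GFP+ cells were sorted by flow cytometry and each tissue gave 1 droplet-based 3′ RNA library, so tissue and library cannot be told apart.

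Matrix metalloproteases are zinc proteases that cut collagens, proteoglycans and surface proteins. Some are secreted, and others, the MT-MMPs such as Mmp14, Mmp15, Mmp16 and Mmp24, stay in the membrane. ADAM proteases sit in the membrane and release the outer parts of surface proteins, while some members such as Adam11, Adam22 and Adam23 have no protease activity and bind other proteins. ADAMTS proteases are secreted, and they process procollagens or cut proteoglycans such as versican and aggrecan. TIMPs block the active site of these enzymes, and Timp2 also takes part with Mmp14 in the activation of pro-Mmp2.

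The start regions of the 4 inhibitors are shown because these genes, which encode proteins of 1 family, differed in how widely they were detected. The windows, taken from RefSeq on build GRCm38.p6, run 5′ to 3′ on the strand of the gene from 250 bases before to 50 bases after the annotated start, and capitals mark CpG dinucleotides. They lie at chrX:20869916-20870215 on the plus strand (Timp1), chr11:118355362-118355661 on the minus strand (Timp2), chr10:86300162-86300461 on the plus strand (Timp3) and chr6:115252156-115252455 on the minus strand (Timp4).
Timp1: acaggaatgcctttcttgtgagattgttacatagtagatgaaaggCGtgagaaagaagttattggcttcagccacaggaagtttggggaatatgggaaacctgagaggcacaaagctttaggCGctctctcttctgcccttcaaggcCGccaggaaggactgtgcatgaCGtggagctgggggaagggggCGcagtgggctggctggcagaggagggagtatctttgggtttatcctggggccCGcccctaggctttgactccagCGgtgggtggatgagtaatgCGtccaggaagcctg
Timp2: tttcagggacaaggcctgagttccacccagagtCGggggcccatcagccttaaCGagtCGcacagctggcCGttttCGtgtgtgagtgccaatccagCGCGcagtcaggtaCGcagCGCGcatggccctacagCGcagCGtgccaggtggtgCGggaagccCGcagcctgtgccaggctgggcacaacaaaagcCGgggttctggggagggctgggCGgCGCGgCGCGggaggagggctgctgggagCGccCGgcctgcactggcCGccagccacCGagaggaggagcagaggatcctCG
Timp3: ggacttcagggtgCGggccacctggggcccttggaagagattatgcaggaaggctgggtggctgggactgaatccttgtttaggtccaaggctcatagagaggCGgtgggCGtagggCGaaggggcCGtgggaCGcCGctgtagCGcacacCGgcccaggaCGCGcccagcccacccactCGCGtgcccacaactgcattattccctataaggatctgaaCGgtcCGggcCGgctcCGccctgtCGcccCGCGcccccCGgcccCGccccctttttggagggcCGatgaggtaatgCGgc
Timp4: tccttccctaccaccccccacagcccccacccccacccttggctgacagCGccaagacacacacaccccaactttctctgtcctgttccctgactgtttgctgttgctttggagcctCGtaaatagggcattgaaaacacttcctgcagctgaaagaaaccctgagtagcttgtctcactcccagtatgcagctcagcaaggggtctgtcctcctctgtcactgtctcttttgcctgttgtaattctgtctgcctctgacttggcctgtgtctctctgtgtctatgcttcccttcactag
The windows of Timp2 and Timp3 hold 25 and 24 CpGs, that of Timp1 8 and that of Timp4 2. Timp2 was detected at 10 CPM (UMIs of a gene scaled to the total of its class) or more in 15 of 17 classes, Timp3 in 13, and Timp1 and Timp4 in 5 each. CpG number and breadth did not run together in other members. Adam10 and Adam17, with 32 and 30 CpGs, reached 10 CPM in 17 classes, and Mmp14, with 10, in 13. Adamts14 and Mmp24, with 44 CpGs each, reached it in no class. The relation of the 2 measures was not tested. The table held windows for 29 of the 51 members, 32 windows in all, with a median of 19.5 CpGs against 7 over all 32841 windows. A GC box (GGGCGG, both strands) was present in 65.6% of member windows and 35.7% of all windows, a TATA box (TATAAA, both strands) in 9.38% and 13.6%, and an AP-1 element (TGANTCA, which reads the same on both strands) in 6.25% and 7.81%. Among the 4 inhibitors, the GC box was found once in Timp1, once in Timp2 and 2 times in Timp3, and none of the 4 windows held either other motif. These are descriptions of letters in a window and say nothing of binding.

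There were 4640 barcodes and 26221173 UMIs for brain, and 5981 barcodes and 36816962 UMIs for lung. Of these, 4151 and 5608 cells with a median of 4209 and 5585 UMIs passed the filter of the methods (over 200 and under 4000 genes, under 40% mitochondrial UMIs). The paper's maps show 4640 brain and 5981 lung cells, as many as the deposited barcodes, so cells left out here may be among those it shows. Cells were placed in classes by 8 markers each, which gave 10 brain and 7 lung classes of at least 20 cells. In brain these were quiescent neural stem cell or astrocyte-like (qNSC/astrocyte-like, 780 cells), activated neural stem cell-like (aNSC-like, 75), neuroblast-like (1967), oligodendrocyte progenitor-like (OPC-like, 214), mature oligodendrocyte-like (mOL-like, 49), ependymal-like (103), fibroblast-like (63), macrophage-lineage-like (40), endothelial-like (307) and pericyte-like (159). In lung they were endothelial-like (588), pericyte-like (2196), myofibroblast-like (312), matrix fibroblast-like (79), Schwann/neural-like (33) and T cell-like cells (99), and 275 cells gated on contractile genes such as Myh11, Cnn1 and Acta2. Of 68 further markers not used in the gates, 61 were over 2-fold higher in their class than in the other cells of the library. The lung pericyte-like class met this for 2 of 4, with Lamc3 at 5.12 CPM and Abcc9 at 79.1. The contractile-gene gate met it for 1 of 4, so it is not named as smooth muscle here. Of its cells, 76 lay in a cluster of 78 cells, called the contractile-gene cluster below. That cluster was named by the 8 markers of the gate, so its name is no further check. In lung, 35.7% of cells (2000) fitted no class, against 9.49% (394) in brain. Their summed member level was 3361 CPM in lung, and the lung classes below leave these cells out. The tables shared 15 barcodes.

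Levels in CPM, the counts per 1000000 UMIs of a class, are given with an exact 95% Poisson interval in parentheses. For a ratio between classes, the 95% interval in parentheses is exact and conditional on the sum of both UMI counts (Clopper-Pearson). Both cover counting error only. Each class is the sum of cells from 1 library, so there was no replicate check and no test. UMIs of a 3′ library were not scaled by length, so levels are compared between classes for the same gene, not between genes. A class with fewer transcripts per cell and one in which fewer cells use the gene cannot be told apart from a sum.

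All members together made up 344 CPM in aNSC-like, 455 in neuroblast-like and 463 in T cell-like cells at the low end, and 3917 in lung myofibroblast-like and 4956 in lung matrix fibroblast-like cells at the high end. Brain classes lay between 344 and 1725 CPM, the highest being the OPC-like cells. Of the 51 members, 31 had their highest level in a lung class (60.8%) and 20 in a brain class, and of 17982 genes with at least 20 UMIs and a UMI in at least 1 class 27.5% were highest in a lung class. The matrix fibroblast-like cells were highest for 14 members (27.5%, against 3.61% of these genes), and the OPC-like (8.08% of these genes) and lung myofibroblast-like cells (2.24%) for 6 each (11.8%). The matrix fibroblast-like gate held 79 cells, 73 of them in clusters of that name, while those clusters held 558 cells, so the gate left most of them out. Some of these highest levels rest on few UMIs in a small class, such as the T cell-like cells, highest for 3 members. When the classes were taken from clusters, 42 of the 51 members had the same highest class, and 26 of the 28 that reached 50 CPM, the exceptions being Adamts1 and Adamts15. Adam10 and Adam17, the main sheddases of Notch and of growth factors and cytokines, were the only members at 10 CPM or more in each of the 17 classes. Adam17 overlaps Iah1 on the opposite strand. Iah1 was at 6.08 CPM in macrophage-lineage-like to 98.4 CPM in Schwann/neural-like cells, and the part of Iah1 reads in the Adam17 counts was not tested. At the other end, 7 members (Mmp21, Mmp24, Mmp27, Adam3, Adam4, Adam32 and Adamts14) stayed below 10 CPM in each class. Adam3 and Adam32 are known from the testis, and their counts here were few.

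**Figure D1:**
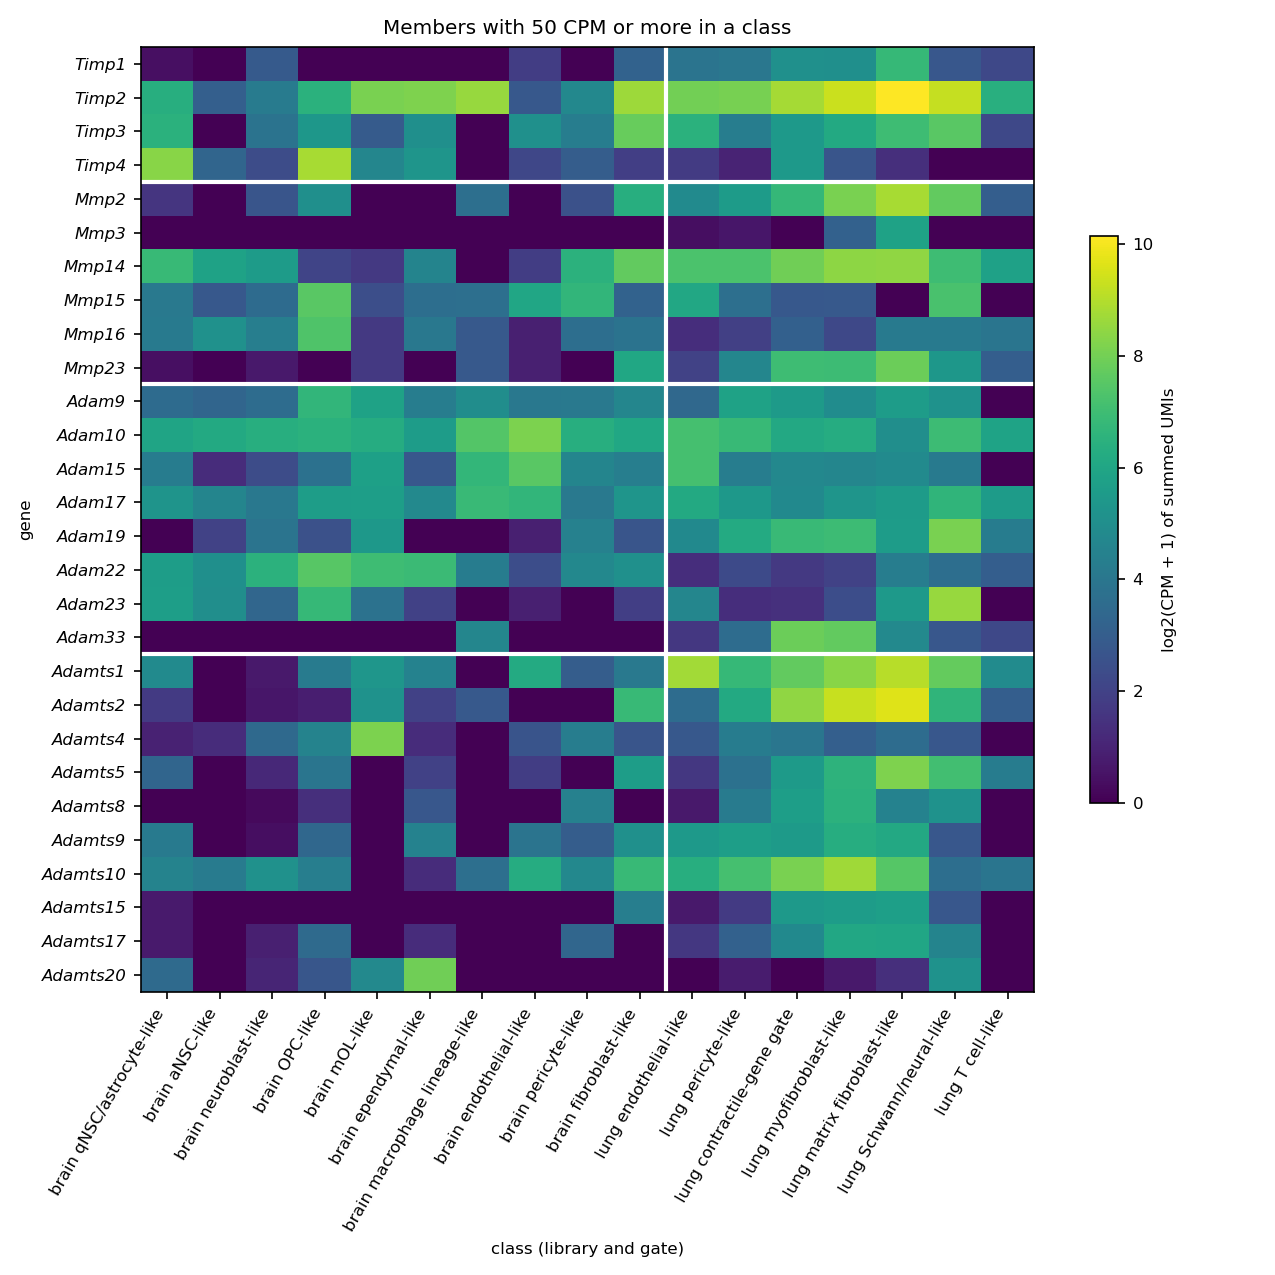
Level of the 28 members that reached 50 CPM in at least 1 class, as log2(CPM + 1) of the summed UMIs of each class (colour), with brain classes to the left of the white vertical line and lung classes to the right. White horizontal lines part the Timp, Mmp, Adam and Adamts genes. Adamts1 and Adamts2 are bright over the lung stromal classes, Timp4 in 2 brain classes, and Adamts4 and Adamts20 in 1 brain class each.

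Among the inhibitors, Timp4 belonged to the glial classes of brain. Timp4 (chr6:115241892-115252205) was at 448 CPM (411 to 486) in OPC-like and 328 CPM (308 to 349) in qNSC/astrocyte-like cells. It was at 37.6 CPM in ependymal-like and 24.2 CPM in mOL-like cells, and at 8.85 CPM or less in the 6 other brain classes. A Timp4 UMI was found in 68.2% of OPC-like and 50.9% of qNSC/astrocyte-like cells, against 1.78% of neuroblast-like and 1.30% of endothelial-like cells, whose median depths were 6166.5, 3712.5, 4430 and 3758 UMIs. After each cell was thinned to 1000 UMIs the shares were 29.4%, 23.9%, 0.577% and 0.669%. In lung, Timp4 was at 44.3 CPM (35.2 to 55.0) in the contractile-gene gate and at 5.47 CPM or less in the 6 other classes. The contractile-gene cluster of 78 cells held 70 of the 146 Timp4 UMIs of the whole lung table, at 152 CPM (118 to 192). Timp4 lies inside Syn2 on the opposite strand, and whether the counting kept strands apart is not stated in the sources used here. Syn2 was at 60.7 CPM in OPC-like, 59.0 in aNSC-like and 37.0 in qNSC/astrocyte-like cells, and at 14.6 CPM or less in the 14 other classes, and the part of Syn2 reads in the Timp4 counts was not tested.

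Timp2 (chr11:118301069-118355740) was the inhibitor found most widely. It ran from 6.02 CPM in brain endothelial-like and 7.37 CPM in aNSC-like cells to 1131 CPM (1050 to 1216) in lung matrix fibroblast-like cells. Next in order came lung myofibroblast-like cells (636 CPM, 598 to 676) and Schwann/neural-like cells (608 CPM, 497 to 736), whose intervals overlap. The brain classes with the highest Timp2 were fibroblast-like (398 CPM, 336 to 468) and macrophage-lineage-like (383 CPM, 295 to 490), which also overlap, then ependymal-like (291 CPM) and mOL-like cells (271 CPM). In the macrophage-lineage-like cells each of the 63 Timp UMIs was Timp2.

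Timp3 (chr10:86300372-86349506), an inhibitor that binds to the matrix, was highest in brain fibroblast-like cells (221 CPM, 175 to 274) and Schwann/neural-like cells (185 CPM, 127 to 262), whose intervals overlap. Lung matrix fibroblast-like cells had 127 CPM (100 to 157, or 74.8 by clusters), and lung endothelial-like and qNSC/astrocyte-like cells had nearly the same level, 88.0 and 87.8 CPM. Timp1 (chrX:20870166-20874735), a secreted inhibitor induced by injury and cytokines, was at 111 CPM (86.6 to 140) in lung matrix fibroblast-like cells and at 32.8 CPM or less in the other lung classes. In brain it reached 8.18 CPM, from 3 UMIs, in fibroblast-like cells and was at 0 UMIs in 6 of 10 classes.

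**Figure D2:**
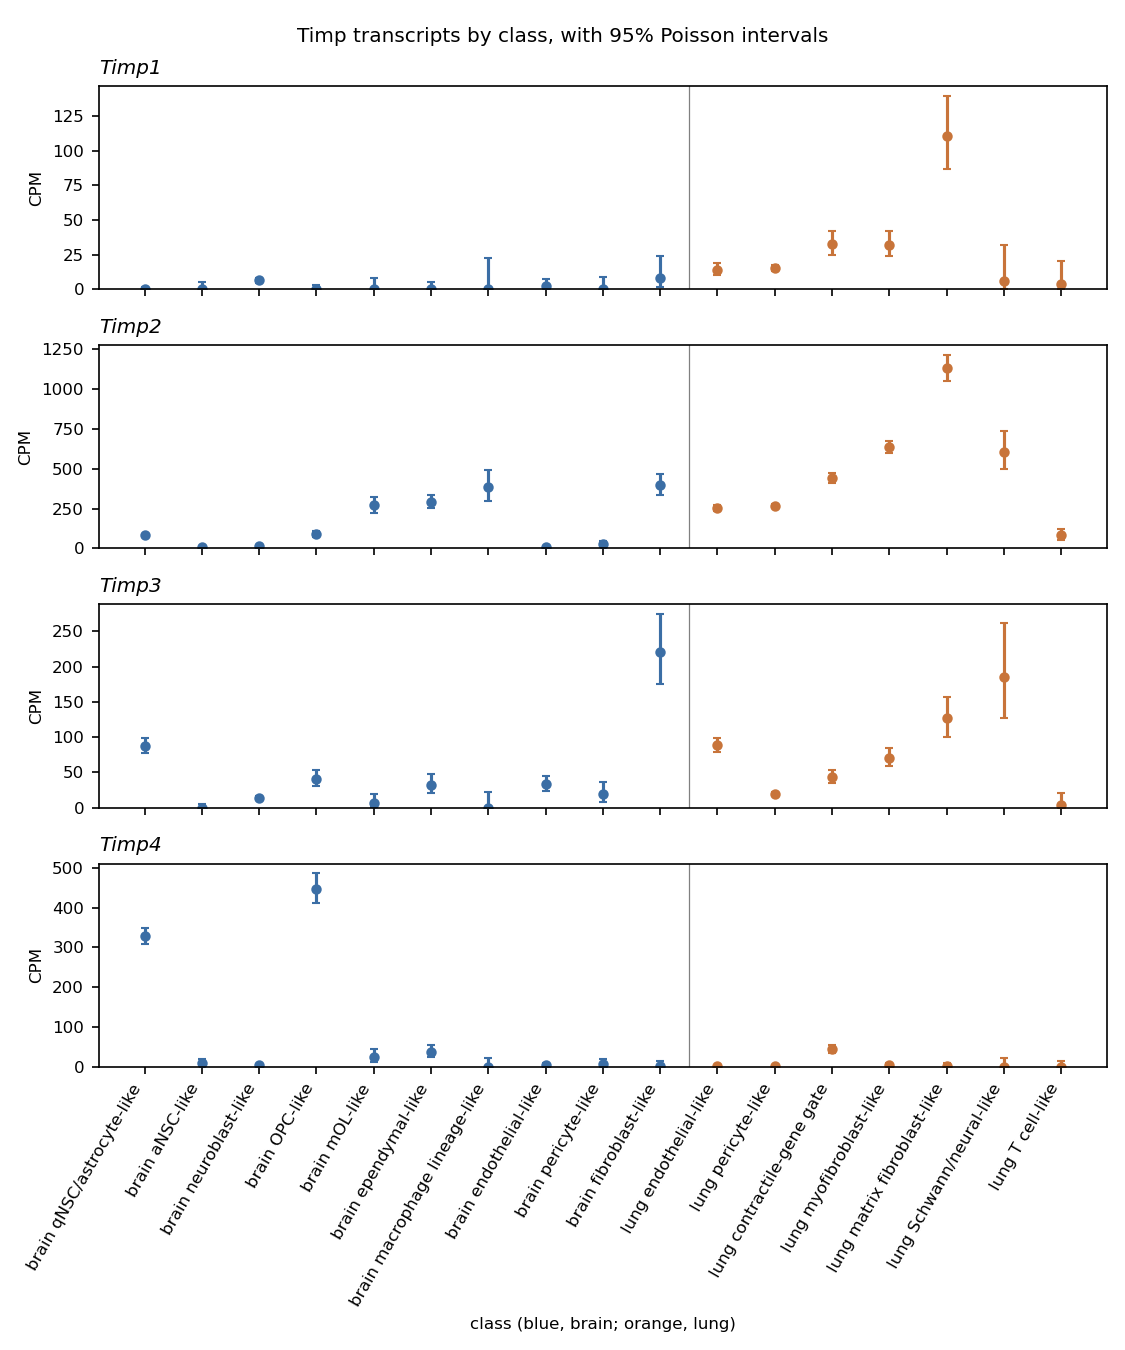
CPM of Timp1, Timp2, Timp3 and Timp4 in the 17 classes (brain in blue, lung in orange), each point the summed UMIs of a class with its exact 95% Poisson interval, and each vertical axis starting at 0 with its own scale. Timp4 stands high in OPC-like and qNSC/astrocyte-like cells at 448 and 328 CPM, while Timp1 and Timp2 are highest in lung matrix fibroblast-like cells.

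Mmp2 and Mmp14 were highest in lung fibroblast classes. Mmp2, the secreted gelatinase A, was at 448 CPM (398 to 503, or 279 by clusters) in lung matrix fibroblast-like, 274 CPM in myofibroblast-like and 208 CPM (146 to 289) in Schwann/neural-like cells. In brain it was at 81.8 CPM (55.2 to 117) in fibroblast-like and 31.9 CPM in OPC-like cells, and had 0 UMIs in aNSC-like, mOL-like, ependymal-like and endothelial-like cells. Mmp14, the membrane protease that activates pro-Mmp2, was at 347 and 338 CPM in the lung matrix fibroblast-like and myofibroblast-like classes, whose intervals (303 to 395 and 311 to 367) overlap. Outside the stroma Mmp14 was at 155 CPM in lung endothelial-like, 112 CPM in qNSC/astrocyte-like and 56.0 CPM in aNSC-like cells, but at 3.19 CPM in OPC-like, 2.58 CPM in brain endothelial-like and 2.20 CPM in mOL-like cells. Mmp23, which has an unusual domain order, was at 230 CPM in matrix fibroblast-like, 126 CPM in contractile-gene and 123 CPM in myofibroblast-like cells, and in brain at 65.4 CPM (41.9 to 97.3) in fibroblast-like cells and at 6.08 CPM or less elsewhere. Mmp3, stromelysin 1, had no UMI in the brain table and 56.2 CPM (39.4 to 77.8) in lung matrix fibroblast-like cells.

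The membrane-bound Mmp15 and Mmp16 had their highest levels in OPC-like cells, where Mmp14 was at 3.19 CPM. Mmp15 was at 184 CPM (161 to 210) there and at 151 CPM (98.3 to 221) in Schwann/neural-like cells, with overlapping intervals, followed by brain pericyte-like cells at 102 CPM (74.4 to 137). Mmp16 was at 164 CPM (142 to 188) in OPC-like cells and at 33.9 CPM (21.5 to 50.9) in aNSC-like cells, the next class by the gates. By clusters, lung matrix fibroblast-like cells had Mmp16 at 40.7 CPM (35.3 to 46.6). Within the OPC-like class the cells were parted by Pdgfra, the receptor of progenitors, and Gpr17, a receptor of committed precursors. Most UMIs of Mmp15 (189 of 231) and Mmp16 (155 of 205) lay in the 88 cells with both, at 420 CPM (362 to 484) and 344 CPM (292 to 403). In the 107 cells with Gpr17 but no Pdgfra, Mmp15 was at 17.3 CPM (13 UMIs) and Mmp16 at 37.2 CPM (28 UMIs). The 16 cells with Pdgfra but no Gpr17 had Mmp15 at 596 CPM (28 UMIs), 34.5-fold (17.3 to 72.6) over the cells with Gpr17 alone, and Mmp16 12.02-fold (6.49 to 21.9) over them. Timp4 went the other way, at 213 CPM (10 UMIs) with Pdgfra alone, 287 CPM with both and 559 CPM (421 UMIs) with Gpr17 alone, and so did Adam23, at 21.3, 46.6 and 151 CPM. The first of these Adam23 values lies under the floor of 3 UMIs in its subset, which is 63.9 CPM. Of 11 members counted, 3 were over 2-fold higher with Pdgfra alone than with Gpr17 alone and 3 lower, against 16.1% and 17.1% of 5593 genes. Median depths were 2274 with Pdgfra alone, 5216.5 with both and 7650 UMIs with Gpr17 alone. Only 3 cells had neither gene, and these subsets were chosen after values were seen.

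The other Mmp members were low. Mmp11, stromelysin 3, was at 43.8 CPM in lung myofibroblast-like and 41.9 CPM in brain pericyte-like cells. Mmp28, epilysin, was at 19.8 CPM (12.5 to 29.7) in brain endothelial-like and 6.58 CPM in lung endothelial-like cells, and at 6.08 CPM, 1 UMI, or less in the 15 other classes. Mmp9, gelatinase B, was at 10.2 CPM (8.37 to 12.2) in gated lung pericyte-like cells and had 3 UMIs in the whole brain table. The pericyte-like clusters held 12 Mmp9 UMIs, at 1.03 CPM (0.532 to 1.80), and an epithelial-like cluster of 37 cells 48, at 148 CPM (109 to 196). Mmp17 reached 17.4 CPM from 3 UMIs and Mmp19 12.5 CPM from 8 UMIs.

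Of the ADAM sheddases, Adam10 was highest in brain endothelial-like cells at 283 CPM (253 to 315), followed by macrophage-lineage-like cells at 170 CPM (113 to 246) and lung endothelial-like cells at 141 CPM (129 to 154). Adam15, which is known from endothelium, was at 184 CPM (160 to 210) in brain and 139 CPM (127 to 153) in lung endothelial-like cells and at 103 CPM in macrophage-lineage-like cells. Its 14 other classes were at 52.8 CPM or less. Adam17, the sheddase of tumour necrosis factor, was at 116 CPM (69.6 to 181) in macrophage-lineage-like and 101 CPM (83.2 to 121) in brain endothelial-like cells, which overlap. Adam9 was highest in OPC-like cells at 102 CPM (85.2 to 121). Adam19 was at 272 CPM (200 to 362) in Schwann/neural-like cells and at 125 CPM in lung myofibroblast-like cells, and Adam12, a gene of mesenchymal cells, at 46.9 CPM in lung matrix fibroblast-like and 38.2 CPM in brain fibroblast-like cells. Adam8, an ADAM of leukocytes, had its highest level in macrophage-lineage-like cells, at 24.3 CPM from 4 UMIs, and by clusters in T cell-like cells at 32.7 CPM.

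Adam33, a gene known from airway smooth muscle and fibroblasts, had its highest levels in 2 lung classes that have no brain counterpart here. It was at 232 CPM (211 to 255) in the contractile-gene gate, at 206 CPM (185 to 229) in myofibroblast-like cells and at 26.6 CPM in matrix fibroblast-like cells. In the contractile-gene cluster it was at 286 CPM (240 to 340). Its 4 UMIs in the brain table lay in macrophage-lineage-like cells. No brain cell met the contractile-gene gate, and the myofibroblast-like markers were used for lung only.

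The ADAMs without protease activity were highest in neural and glial classes. Adam22, a receptor for LGI proteins, was at 184 CPM (161 to 209) in OPC-like, 128 CPM in mOL-like, 119 CPM in ependymal-like and 90.1 CPM in neuroblast-like cells, and at 18.7 CPM or less in each lung class. Adam23, another partner of LGI proteins, was at 382 CPM (296 to 486) in lung Schwann/neural-like cells and at 110 CPM (92.5 to 130) in OPC-like cells. Adam11 was highest in OPC-like cells at 29.5 CPM (20.8 to 40.7, or 51.7 by clusters). Lgi1, the secreted ligand on the substrate list, was at 62.3 CPM in qNSC/astrocyte-like cells, where Adam22 and Adam23 were at 48.8 and 51.1 CPM.

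Adam5, one of the ADAMs known from the testis, reached 33.3 CPM (21.1 to 49.9) in ependymal-like cells, with 23 of its 34 brain UMIs there. Adam3 and Adam32, which flank it on chromosome 8 at gaps of 1.24 and 11.8 kb on the same strand, had 0 and 2 UMIs in these cells.

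Several ADAMTS genes marked 1 brain class each. Adamts4, an aggrecanase, was at 284 CPM (237 to 337) in mOL-like cells and at 22.3 CPM (14.9 to 32.3) in OPC-like cells, the next class, or 283 and 46.7 CPM (36.8 to 58.5) by clusters. A UMI was present in 85.7% of mOL-like, 11.2% of OPC-like and 0.385% of qNSC/astrocyte-like cells, at median depths of 11516, 6166.5 and 3712.5 UMIs, and after thinning in 23.4%, 1.47% and 0 of 754 cells. For the last, a floor of 3 cells is 0.398%. Adamts20 was at 245 CPM (209 to 284) in ependymal-like cells, 71.8% of which had a UMI, and next at 34.7 CPM, from 6 UMIs, in lung Schwann/neural-like cells. Among the 17 classes Adamts18 reached 10 CPM only in qNSC/astrocyte-like cells (11.1 CPM, 7.72 to 15.6).

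Adamts2 and Adamts10 had their highest levels in lung fibroblast classes. Adamts2, a procollagen N-proteinase, was at 812 CPM (744 to 885) in matrix fibroblast-like, 621 CPM (583 to 660) in myofibroblast-like and 350 CPM in contractile-gene cells, and in brain at 112 CPM (80.2 to 152) in fibroblast-like cells. Its relative Adamts3 was instead highest in lung pericyte-like cells, at 30.6 CPM (27.5 to 34.1), with 9.58 CPM in OPC-like cells next. The epithelial-like cluster of 37 cells, which is not among the gated classes, had Adamts3 at 52.4 CPM (30.5 to 83.8) from 17 UMIs, against 32.0 CPM in the pericyte-like clusters. Adamts14, the last member of that group, stayed at 7.23 CPM or less. Adamts10, which is linked to fibrillin microfibrils, was at 413 CPM (382 to 445) in myofibroblast-like cells, and Adamts17, its relative, at 66.3 CPM in myofibroblast-like and 62.5 CPM in matrix fibroblast-like cells. Adamts8 was at 91.8 CPM (77.8 to 108) in myofibroblast-like cells and Adamts9 at 78.4 CPM there.

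Adamts1 and Adamts5, proteoglycanases that lie 53.1 kb apart on the same strand of chromosome 16, differed in endothelium. By the gates both were highest in lung matrix fibroblast-like cells, Adamts1 at 536 CPM (480 to 595) and Adamts5 at 290 CPM (250 to 335). By clusters Adamts5 was at 193 CPM (182 to 206) there, again its highest class, but Adamts1 at 318 CPM (303 to 334). That was below the contractile-gene cluster (432 CPM, 374 to 496) and the endothelial-like clusters (425 CPM, 404 to 447). In lung endothelial-like cells Adamts1 was at 427 CPM (405 to 449) and Adamts5 at 2.10 CPM, 7 UMIs. Adamts15 and Adamts8, neighbours on opposite strands 20.1 kb apart on chromosome 9, differed between the lung fibroblast classes. Adamts15 was at 47.4 CPM in myofibroblast-like and 51.5 CPM in matrix fibroblast-like cells, and Adamts8 at 91.8 and 21.9 CPM. In the contractile-gene cluster Adamts15 was at 67.2 CPM and Adamts12 at 93.3 CPM. By the gates Adamts12 was at 46.3 CPM (27.0 to 74.2) in brain fibroblast-like and 45.4 CPM (36.1 to 56.2) in lung contractile-gene cells.

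Endothelial-like cells of both tissues came through the same markers and were compared first. Of 20 members with at least 20 UMIs over both classes, 11 were over 2-fold higher in lung (55% of members counted, against 14.2% of all 10388 genes counted) and 2 over 2-fold lower (10%, against 11.1%). The 31 other members had fewer UMIs. The classes held 1162850 UMIs in brain and 3340962 in lung, so a member could reach 20 UMIs through the lung class alone. Mmp2, Adamts2, Adam19, Adam23 and Adamts7, with 0 or 1 UMI in brain, did so. The median log2 ratio of the 20 was 1.54, and that of all genes 0.03. Mmp14 had 3 UMIs in brain and 518 in lung endothelial-like cells, 2.58 against 155 CPM, a ratio of 60.1 (20.5 to 292), or 24.9 (12.6 to 58.0) between the classes taken from clusters. Timp2 had 7 and 847 UMIs, 6.02 against 254 CPM, a ratio of 42.1 (20.4 to 105). Both partners of pro-Mmp2 activation were thus higher in the lung class, and Mmp2 itself had 0 UMIs in brain and 92 in lung, at least 10.7-fold higher against a floor of 3 UMIs in the brain class. The membrane-bound relative Mmp15 was at 63.6 and 67.3 CPM, with a ratio of 1.06 (0.810 to 1.395).

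Adamts1 was at 73.1 CPM in brain and 427 CPM in lung endothelial-like cells, a ratio of 5.84 (4.69 to 7.35), and Timp3 at 32.7 and 88.0 CPM, a ratio of 2.69 (1.92 to 3.88). Adam19, Adam23 and Adamts7 each had 1 UMI in brain and 90, 82 and 31 in lung, giving ratios of 31.3 (5.48 to 1251), 28.5 (4.98 to 1141) and 10.8 (1.80 to 440), the last of which was 2.14 (0.891 to 6.23) by clusters. Timp1 (5.45), Adamts9 (3.15) and Adamts2 (at least 4.29) were the other members over 2-fold higher. Higher in brain were Mmp28, 3.00-fold (1.6 to 5.65), and Adam10, 2.01-fold (1.74 to 2.32), the latter at the edge of the 2-fold limit. The sheddases Adam17, Adam15 and Adam9 had lung to brain ratios of 0.711 (0.568 to 0.895), 0.758 (0.643 to 0.895) and 0.638 (0.349 to 1.20).

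RNA free in the droplets can add UMIs to a class and was not measured here. For comparison, the lung T cell-like cells, a class not known for these stromal genes, had Timp2 at 83.1 CPM, Mmp14 at 54.2 CPM, Adam19 at 18.1 CPM, and Mmp2 and Adamts2 at 7.23 CPM, against 254, 155, 26.9, 27.5 and 11.1 CPM in lung endothelial-like cells. Timp3 and Timp1 were at 3.61 CPM and Adam23 at 0 in the T cell-like cells. A Timp2 UMI was found in 66.7% of lung endothelial-like, 18.2% of lung T cell-like and 2.28% of brain endothelial-like cells, at median depths of 5370.5, 1804 and 3758 UMIs, and after thinning in 23.1%, 12.2% and 0.669%. For Mmp14 the thinned shares were 14.2%, 2.04% and 0.334%. The 14 genes of dissociation and immediate early response, such as Fos and Egr1, summed to 5976 CPM in lung and 2924 CPM in brain endothelial-like cells, with 7 of 13 over 2-fold higher in lung, and their part in the member ratios was not tested.

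Lung endothelial-like cells were also parted into capillary subsets. Cells with at least 2 UMIs of Ednrb or Apln, genes of the large alveolar capillary cells, were set against cells with none, 250 against 252 cells. Of 19 members with at least 20 UMIs, 0 were over 2-fold higher and 1 lower, against 1.68% higher and 3.1% lower of 9267 genes. The 1 was Adamts2, at 0.407 (0.180 to 0.864), from 11 against 24 UMIs. Adamts1 had a ratio of 1.24 (1.10 to 1.39), Timp2 of 1.06 (0.912 to 1.22) and Mmp14 of 0.978 (0.811 to 1.18).

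Pericyte-like cells held 429913 UMIs in brain and 11131216 in lung, so that a low member could reach 20 UMIs through the lung class alone. Of 34 members counted, 13 were over 2-fold higher in lung (38.2%, against 14% of 12129 genes) and 4 over 2-fold lower (11.8%, against 16%). Adamts1 was at 6.98 CPM (3 UMIs) in brain and 109 CPM in lung, a ratio of 15.6 (5.32 to 75.7), and Timp2 at 25.6 and 267 CPM, a ratio of 10.4 (5.83 to 20.9). Adamts2 had 0 UMIs in brain and 69.7 CPM in lung, at least 9.99-fold higher, or 3.98-fold by clusters and 2.47-fold in the cells whose gate and cluster had the same name. For Mmp2 the ratio was 9.91 (2.73 to 82.0), for Adamts9 7.27 (2.48 to 35.4) and for Adam12 5.95 (1.63 to 49.3). Mmp14, in contrast to the endothelial-like classes, was at 90.7 and 154 CPM, a ratio of 1.70 (1.24 to 2.40), and Timp3 at 18.6 and 18.8 CPM, a ratio of 1.01 (0.503 to 2.37).

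The members higher in brain pericyte-like cells were Mmp15, Adam22, Mmp16 and Adam11. Mmp15 was at 102 CPM in brain and 11.9 CPM in lung, 8.57-fold higher in brain (5.95 to 12.1), and Adam22 at 25.6 and 3.86 CPM, 6.62-fold higher (3.08 to 13.1). Mmp16 (4.18-fold, 1.27 to 10.8) and Adam11 (2.99-fold, 1.05 to 6.95) rested on 5 and 6 brain UMIs, and without the cells called doublets the Mmp16 ratio of lung over brain went from 0.239 to 1.18 (0.197 to 48.3), and by clusters to 0.0733 (0.0221 to 0.278). Mmp11 and Adam15 came next, at lung over brain ratios of 0.745 (0.464 to 1.27) and 0.807 (0.430 to 1.71). The genes of dissociation and immediate early response summed to 1270 CPM in brain and 4241 CPM in lung pericyte-like cells, and the lung T cell-like cells had Timp2 at 83.1 CPM and Adamts1 at 28.9 CPM, the latter in 1 cell.

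Fibroblast-like cells were compared between lung, by the matrix fibroblast markers, and brain, by general fibroblast markers. Of 24 members counted, 13 were over 2-fold higher in lung (54.2%, against 16.7% of 6517 genes) and 2 over 2-fold lower (8.33%, against 12.7%). The classes held 366871 UMIs in brain and 640292 in lung, and here too a member could be counted through the lung class alone. Adamts1 was at 16.4 CPM (6 UMIs) in brain and 536 CPM in lung, a ratio of 32.8 (14.9 to 89.9), or 6.38 (4.24 to 10.0) with a gate of 2 markers and a lead of 1. Adam23 (1 against 27 UMIs) had a ratio of 15.5 (2.55 to 633), Timp1 (3 against 71 UMIs) of 13.6 (4.46 to 67.3) and Adam19 (2 against 31 UMIs) of 8.88 (2.26 to 76.6). Adamts17 and Mmp3, with no UMI in brain fibroblast-like cells, were higher in lung by at least 7.64-fold (3.34-fold by clusters) and 6.88-fold. Adamts2 followed at 7.27 (5.28 to 10.2), Adamts5 at 5.92 (3.64 to 10.2), Mmp2 at 5.48 (3.76 to 8.27) and Timp2 at 2.84 (2.38 to 3.42).

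Timp3 ran against Timp1 and Timp2 in the fibroblasts, at 221 CPM in brain and 127 CPM in lung, a lung over brain ratio of 0.573 (0.416 to 0.789), or 0.348 (0.274 to 0.446) by clusters. Adamts12 was 2.47-fold (1.11 to 5.67) and Adam10 2.09-fold (1.11 to 3.998) higher in brain, while Adam22 (0.573, 0.235 to 1.39) and Mmp11 (0.859, 0.392 to 1.96) were within 2-fold. When the 649 lung cells that met the brain fibroblast markers were used instead, Timp3 had a ratio of 0.272, Adamts17 of 2.20 and Adamts12 of 0.748 (0.453 to 1.32), no longer past 2-fold. The genes of dissociation and immediate early response differed most in this comparison, at 875 CPM in brain and 14087 CPM in lung, with 11 of 13 over 2-fold higher in lung and 1 lower, and their part in the member ratios was not tested. Over the 3 comparisons, Adamts1, Adamts2, Adam19, Mmp2 and Timp2 were over 2-fold higher in lung each time, by the gates and by clusters. Adamts9 was so by the gates, but by clusters it was at 35.9 CPM in lung and 30.7 CPM in brain fibroblasts. Timp1 was so by the gates, but in pericyte-like cells only against the floor, with 0 UMIs in brain. It was there at 15.3 CPM in lung against a brain floor of 6.98 CPM, and by clusters at 8.41 against 6.32 CPM.

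**Figure D3:**
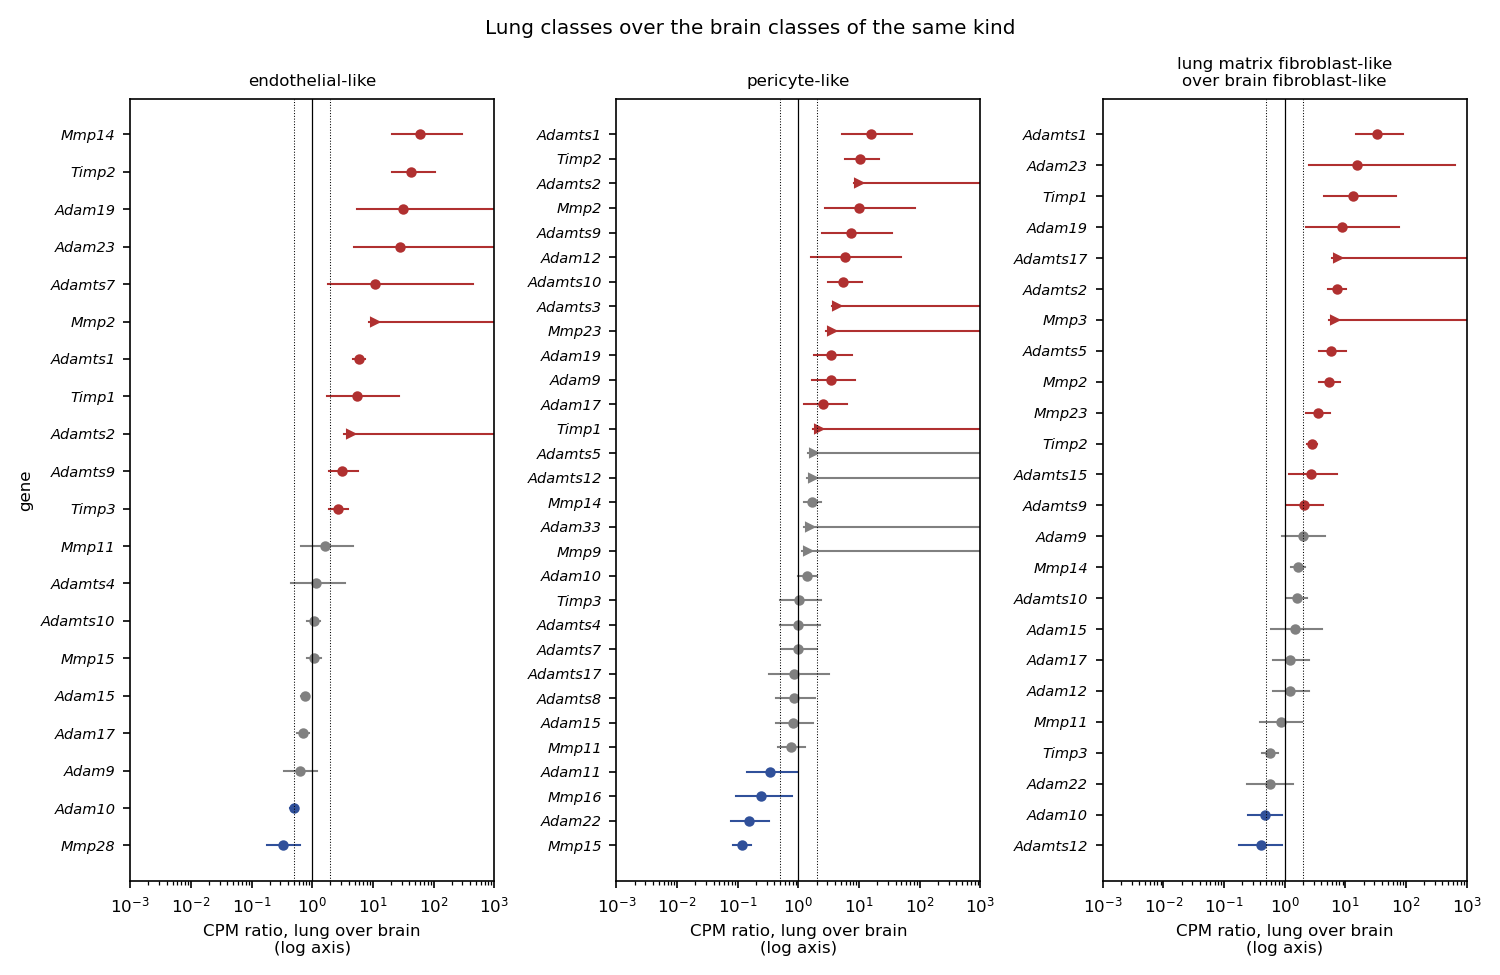
Ratio of CPM, lung over brain on a log axis, for the members with at least 20 UMIs over both classes in endothelial-like, pericyte-like and fibroblast-like cells, with exact 95% intervals drawn up to 1000. Points past 2-fold (dotted lines) are red where higher in lung and blue where lower, triangles mark lower bounds against 0 UMIs in brain, and 4 pericyte-like members with no brain UMI and a lung level under the brain floor are left out. Adamts1, Timp2, Mmp2, Adamts2, Adam19, Timp1 and Adamts9 are red in all 3 panels, Timp1 as a triangle in pericyte-like cells.

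Mmp15 and Adamts10 changed places between endothelial-like and pericyte-like cells of the 2 tissues. The CPM of Mmp15 in endothelial-like over pericyte-like cells was 0.622 (0.423 to 0.925) in brain and 5.64 (4.53 to 7.04) in lung. For Adamts10 it was 2.99 (1.59 to 6.21) in brain and 0.578 (0.506 to 0.657) in lung. Adam15 kept its side, at 7.91 (4.22 to 16.7) and 7.43 (6.30 to 8.79).

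Within the lung library, myofibroblast-like cells were set against matrix fibroblast-like cells. Of 28 members counted, 6 were over 2-fold higher in myofibroblast-like cells (21.4%, against 14.5% of 9096 genes) and 6 over 2-fold lower (21.4%, against 7.06%). Adamts6 was highest by ratio, at 11.7 (1.94 to 477), from 30 UMIs against 1. Adam33 was at 206 against 26.6 CPM, a ratio of 7.76 (4.78 to 13.5), and Adamts8 at 91.8 against 21.9 CPM, a ratio of 4.20 (2.43 to 7.87). Adam19 (2.57), Adam10 (2.47) and Adamts10 (2.32) followed, each with an interval above 1.5. With a gate of 4 markers and a lead of 3, Adam33 had a ratio of 17.8 (5.98 to 87.2), Adamts8 of 1.80 (0.961 to 3.65) and Adam19 of 1.52 (0.864 to 2.87), and Adamts6 was no longer past 2-fold. By clusters Adamts8 went the other way, to 18.6 (13.3 to 26.7), and so did Adam19, to 4.54 (3.86 to 5.35). Lower in myofibroblast-like cells were Timp1 and 5 genes of the protease families. Adam23 was 9.91-fold (4.21 to 26.9), Mmp3 7.11-fold (3.68 to 14.6), Adamts19 6.85-fold (2.55 to 21.4), Timp1 3.44-fold (2.38 to 5.01), Adam12 3.35-fold (1.88 to 6.04) and Adamts5 3.08-fold (2.48 to 3.84) higher in matrix fibroblast-like cells. Mmp14 did not set the classes apart, with a ratio of 0.975 (0.833 to 1.14). The myofibroblast-like gate held 218 of its 312 cells in clusters of that name, and by clusters 13 of 40 members counted were higher (32.5%, against 14% of 11763 genes) and 12 lower (30%, against 10%). Mmp3 was then at 0.242 CPM (1 UMI) in myofibroblast-like and 58.0 CPM (294 UMIs) in matrix fibroblast-like cells, and Adam23 at 1.69 and 35.3 CPM.

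Within the brain library, neuroblast-like cells were set against qNSC/astrocyte-like cells. Of 31 members counted, 7 were over 2-fold higher in neuroblast-like cells (22.6%, against 27% of 13349 genes) and 14 over 2-fold lower (45.2%, against 24.2%). Timp4 was at 4.19 CPM in neuroblast-like and 328 CPM in qNSC/astrocyte-like cells, 78.2-fold (57.0 to 110) higher in the latter. Adamts9 was 53.1-fold (17.2 to 266), Adamts1 44.8-fold (19.8 to 125), Adamts20 10.0-fold (4.80 to 22.8), Adamts5 7.03-fold (3.45 to 15.2) and Timp3 6.495-fold (5.25 to 8.08) higher in qNSC/astrocyte-like cells.

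The members higher in neuroblast-like cells were at low levels. Timp1 had 60 UMIs against 1 (19.2-fold, 3.32 to 770), Adam19 134 against 0 (at least 14.3-fold), Adamts7 145 against 4 (11.6-fold, 4.43 to 43.1), Adamts4 96 against 3 (10.2-fold, 3.40 to 50.5) and Mmp24 30 against 1 (9.60-fold, 1.595 to 391). Their neuroblast-like levels ran from 3.14 to 15.2 CPM. Adam8 had a ratio of 3.41 (1.48 to 9.64). Timp1 lies within Syn1 on the opposite strand, and Syn1 was at 27.6 CPM in neuroblast-like and 2.29 CPM in qNSC/astrocyte-like cells, so for Timp1, at 6.29 against 0.328 CPM, reads of the 2 genes cannot be told apart if strands were not kept. Mmp24 likewise overlaps BC029722 on the opposite strand, which was at 2.52 CPM (24 UMIs) in neuroblast-like and 0.328 CPM (1 UMI) in qNSC/astrocyte-like cells. Syn3, opposite Timp3, was at 13.0 and 3.60 CPM, the other direction from Timp3. Tbc1d2b, opposite Adamts7, was at 4.72 and 6.88 CPM, the other direction from Adamts7. Mmp14 was 2.38-fold (2.06 to 2.75) and Adam17 2.35-fold (1.82 to 3.02) higher in qNSC/astrocyte-like cells, while Adam10 and Adam22 were within 2-fold, at 1.38 and 1.85.

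**Figure D4:**
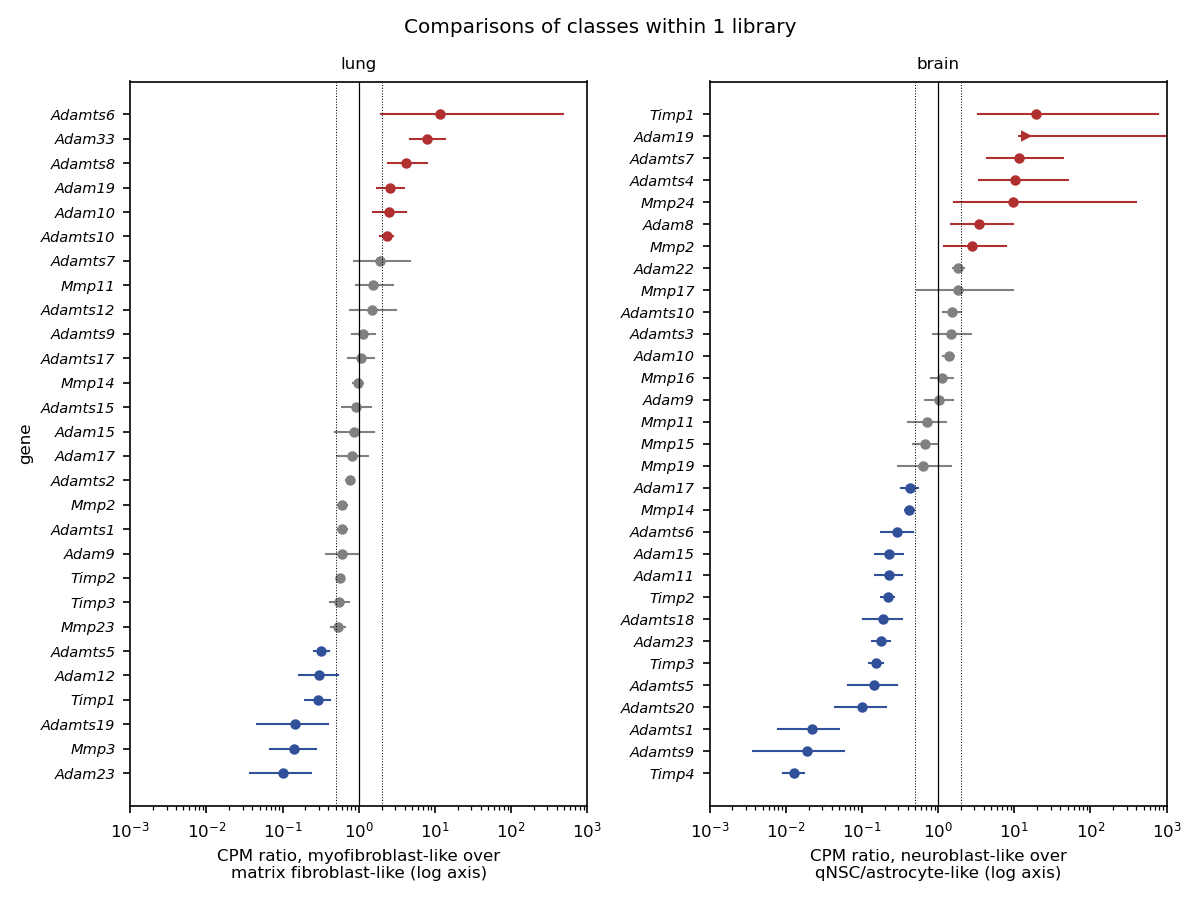
Ratio of CPM on a log axis for lung myofibroblast-like over matrix fibroblast-like cells and for brain neuroblast-like over qNSC/astrocyte-like cells, members with at least 20 UMIs over both classes, with exact 95% intervals drawn up to 1000. Red and blue mark members past 2-fold higher and lower (dotted lines) and the triangle a lower bound. In brain 14 members are blue with Timp4 lowest, and in lung 6 are blue and 6 red.

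Among qNSC/astrocyte-like cells 2 of 17 members counted were over 2-fold higher in one subset and 3 in the other, against 11% and 12.1% of 8853 genes. In the 63 cells with Thbs4 but no Slc7a10 UMI, Timp4 was at 67.0 CPM (16 UMIs), and in the 372 cells with Slc7a10 but no Thbs4 UMI it was at 415 CPM (682 UMIs), 6.20-fold higher. Thbs4 is known from the stem cells of the ventricular wall and Slc7a10 from parenchymal astrocytes. Timp3 was 2.01-fold higher in the Slc7a10 cells, and Timp2 had a ratio of 1.49 (0.914 to 2.33) in the direction of the Thbs4 cells. Adamts9 was at 2.75 (1.05 to 6.52), from 8 against 20 UMIs, Mmp16 at 2.43 (0.784 to 6.45), from 6 against 17, and Mmp14 at 1.49 (1.02 to 2.13). Adam9 was at 0.362 (0.00871 to 2.28), from 1 against 19 UMIs. These subsets were chosen after values were seen.

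The balance of inhibitor to metalloprotease transcripts was taken as summed Timp UMIs over summed Mmp UMIs in a class, a value to be set between classes only, since the genes differ in length. It was 17.1 (8.45 to 40.5) in mOL-like, 5.79 (4.18 to 8.20) in ependymal-like, 4.85 (2.64 to 9.60) in macrophage-lineage-like and 3.01 (2.72 to 3.34) in qNSC/astrocyte-like cells. It was lowest in aNSC-like (0.167, 0.0794 to 0.318), brain pericyte-like (0.2, 0.120 to 0.318), neuroblast-like (0.435, 0.386 to 0.490) and brain endothelial-like cells (0.452, 0.319 to 0.633). The 7 lung classes lay closer together, between 0.893 and 1.39. Timp2 made up 70.8 to 92.0% of Timp UMIs in these, whereas in brain Timp4 made up 77.6% in OPC-like and 66.0% in qNSC/astrocyte-like cells and Timp3 73.1% in endothelial-like cells.

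Cells with a UMI of Mmp2, Mmp14 and Timp2 at once, the set whose products form the pro-Mmp2 activation complex, were counted. They made up 74.7% (63.6 to 83.8, Clopper-Pearson) of lung matrix fibroblast-like, 48.7% (43.0 to 54.4) of lung myofibroblast-like, 28.0% (22.8 to 33.7) of lung contractile-gene, 21.2% (8.98 to 38.9) of lung Schwann/neural-like and 19.0% (10.2 to 30.9) of brain fibroblast-like cells. The other classes were at 6.74% or less. Of brain endothelial-like cells 0 of 307 held even Mmp14 and Timp2 together (exact upper limit 1.19%, floor of 3 cells 0.977%). The share was 37.9% (34.0 to 42.0) in lung endothelial-like and 2.02% (0.246 to 7.11) in lung T cell-like cells. Median depths were 8063, 5333, 6907, 5455, 5236, 3758, 5370.5 and 1804 UMIs in that order of classes, and these shares were not thinned to 1 depth.

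Genes that act with the family were read from lists. Of all genes counted, as a background for each list, 14.2% were over 2-fold higher and 11.1% lower in the endothelial-like comparison, 14% and 16% in the pericyte-like, 16.7% and 12.7% in the fibroblast-like, 14.5% and 7.06% in the myofibroblast-like against matrix fibroblast-like, and 27% and 24.2% in the neuroblast-like against qNSC/astrocyte-like comparison. Of the activation and trafficking list (proprotein convertases, plasminogen activators, iRhoms, tetraspanins and basigin), 3 of 13 genes counted were over 2-fold higher and 3 over 2-fold lower in lung than in brain endothelial-like cells. Bsg, basigin, a surface protein known to induce metalloproteases and abundant in the blood-brain barrier, was at 21415 CPM in brain and 805 CPM in lung endothelial-like cells. Rhbdf2, an iRhom that carries Adam17 to the surface, was at 42.1 CPM in brain and 23.3 CPM in lung endothelial-like cells and at 9.37 CPM or less in the pericyte-like and fibroblast-like classes. Its relative Rhbdf1 was at 86.1 CPM in brain pericyte-like and 54.2 CPM in lung pericyte-like cells. In the pericyte-like comparison 1 of 13 genes of this list was higher and 3 lower, in the fibroblast-like 1 and 2 of 8, in myofibroblast-like against matrix fibroblast-like cells 2 and 1 of 12, and in neuroblast-like against qNSC/astrocyte-like cells 1 and 6 of 13.

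Of the other inhibitors and clearance receptors, none of 6 genes counted was higher and 3 were lower in lung than in brain endothelial-like cells. Spock2, testican 2, was at 2956 CPM in brain and 22.4 CPM in lung endothelial-like cells, and Serpine2, protease nexin 1, at 104 and 13.5 CPM. Reck, the membrane-anchored metalloprotease inhibitor, was at 147 CPM in lung pericyte-like and 20.9 CPM in brain pericyte-like cells, where 5 of 11 genes of the list were higher and 2 lower. In the fibroblast-like comparison 2 of 7 were higher and 1 lower, in myofibroblast-like cells 2 of 11 higher and 4 lower, and in neuroblast-like cells none of 9 higher and 6 lower. Serpine2 was at 387 CPM in qNSC/astrocyte-like and 9.22 CPM in neuroblast-like cells, the same side as Timp4.

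Of the substrates, 4 of 14 genes counted were higher and 5 lower in lung than in brain endothelial-like cells, 6 and 2 of 12 in pericyte-like, 4 and 2 of 9 in fibroblast-like, 0 and 1 of 9 in myofibroblast-like against matrix fibroblast-like and 4 and 7 of 15 in neuroblast-like against qNSC/astrocyte-like cells. Vcan, versican, was at 1062 CPM in OPC-like, 318 CPM in Schwann/neural-like, 285 CPM in neuroblast-like and 253 CPM in lung matrix fibroblast-like cells. Bcan, brevican, was at 1246 CPM in qNSC/astrocyte-like and 678 CPM in OPC-like cells, the classes with the highest Timp4, and at 0 UMIs in lung endothelial-like cells. Of the genes of dissociation and immediate early response, 8 of 14 were higher and 1 lower in lung than in brain pericyte-like cells, 1 of 13 higher and 4 lower in myofibroblast-like than in matrix fibroblast-like cells, and 4 of 12 higher and 3 lower in neuroblast-like than in qNSC/astrocyte-like cells.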

How the data were processed

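Single-cell RNA was profiled in 1 brain and 1 lung library of Nestin-GFP+ cells. The deposited values are UMI counts per gene and barcode, not normalized by the authors, who per the submitters' notes used bcl2fastq 2.19.1.403, UMI-tools 1.0.0, STAR 2.7.1a and featureCounts 1.6.4 with mm10. The annotation version, the strand setting and the rule for barcodes are not given in the sources used here. Opposite-strand overlaps and gene coordinates were read from GENCODE annotation of GRCm38.

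Cells passed the filter of the methods. A cell took the class with the most of 8 markers, at least 3 and 2 ahead of the next. UMIs were summed per class (20 or more cells) and scaled to CPM, and members with 20 or more UMIs over both classes were compared. In each comparison a member could reach that number through 1 class alone. A fold of 2 was called, with 0 set to a floor of 3 UMIs. A ratio was left out where that floor was above the other class. Intervals cover counting error only. The calculation was tested on simulated data. Cells were also clustered (Leiden, scanpy 1.11.5, 20 components, resolution 1), and doublets called with Scrublet (44 brain and 69 lung cells) were kept.

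The members, lists, markers and classes were chosen with earlier results of these data known. Named were all Timp genes, members with 50 CPM in a class, the 6 largest ratios in each direction, Adam10, Adam17 and genes of the lists. Other members named (Adam5, Adam8, Adam11, Adamts3, Adamts14, Adamts18, Adam3, Adam32 and low Mmp genes), the subsets, 5 alternatives and the shares of all genes beside subsets, clusters and highest classes were chosen after values were seen.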

Additional observations from a re-analysis of the deposited data

Results flagged for a closer look

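The ratio of endothelial-like to pericyte-like CPM lay on opposite sides of 1 in brain and lung for Mmp15 (0.622 in brain, 5.64 in lung) and Adamts10 (2.99 in brain, 0.578 in lung), with each interval clear of 1. The difference between tissues was not tested, since each tissue is 1 library. Member UMIs were also present in the barcodes outside the cell filter, which no comparison uses. They made up 845 CPM in 489 brain barcodes and 2095 CPM in 373 lung barcodes, against 750 and 2497 CPM in the cells kept and a floor of 3 UMIs at 0.448 and 0.598 CPM.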

How the results depend on the processing

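No paired analysis was possible because each group is 1 library, and for the same reason no replicate could be left out. Of 556 recomputed ratios of named members (58 ratios), 524 stayed within the reported interval, 31 moved beyond it and 1 reversed, with 552 on the reported side of 1. Of 129 recomputed CPM values 28 moved beyond their interval. The reversal was Mmp16 in lung against brain pericyte-like cells, from 0.239 to 1.18 without called doublets. The other 3 that left their side of 1 were Adamts6 in lung myofibroblast-like cells, for which the stricter gate allowed no fold against the floor, and Mmp11 in fibroblasts, from 0.859 to 1.16 with the stricter gate and 1.27 with a gate of 2 markers and a lead of 1. The 2 members over 2-fold lower in lung endothelial-like cells became 1 without doublets, with a gate of 4 markers and a lead of 3, by clusters, where gate and cluster agreed, by the mean of per-cell CPM and at 3-fold, and 5 with no minimum of UMIs. The 2 lower in lung fibroblasts became 1 with all barcodes or the stricter gate and 0 at 3-fold. In lung myofibroblast-like cells the 6 higher became 3 with the stricter gate, 13 by clusters and 3 at 3-fold, and the 6 lower became 3 with the stricter gate, 12 by clusters and 11 with no minimum. The 4 lower in lung pericyte-like cells became 8 with no minimum. Timp over Mmp UMIs moved in OPC-like cells from 1.45 to 2.54 with all barcodes and 1.23 with the stricter gate, and in lung pericyte-like cells from 1.05 to 1.14 by clusters and 1.15 where gate and cluster agreed. The cause of these changes was not tested. The other 99 of 116 recounts and 60 of 64 Timp over Mmp values stayed within 1.5 times or their interval. No lung matrix fibroblast-like cell had 10 or more Sftpc UMIs, so leaving such cells out changed nothing. Depth limits the small classes most: 1 UMI is 6.08 CPM in macrophage-lineage-like and 5.79 CPM in Schwann/neural-like cells.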
